A study of Mus musculus with 20 samples.

Results

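Blood-derived myeloid cells that had entered injured skeletal muscle were compared between day 4 and day 2 after injury. The cells were GFP+ cells sorted from the damaged tibialis anterior, a shin muscle, of female WT mice that had each been joined to a GFP mouse by parabiosis. The members of such a pair share a circulation, so GFP marks cells that arrived with the blood from the other mouse. The comparison used 3 of the 20 libraries in the series, 2 from day 4 and 1 from day 2, and 1 library from day 6 served as a later point of reference. All 4 libraries came from the same gate, which kept PI- (living) CD45+ CD11B+ cells negative for LY6G/SIGLECF. The other 16 libraries held resident macrophages and whole muscle. The sample labels name no drug or diet for these mice. They give neither the injury agent nor the age or strain of these mice, and they do not say how many pairs stand behind a library. A WT mouse of a pair still has its own blood cells, which carry no GFP, so the libraries sample only the labelled share of the infiltrate. Of 16836 genes in the table, 9805 had a mean of at least 1 FPKM (read fragments per length of transcript and per depth of the library) over the 4 libraries, and these were compared.

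Classical monocytes, which in mice carry LY6C on their surface, leave the bone marrow through the chemokine receptor CCR2 and enter damaged tissue within the first days. In injured muscle they first express inflammatory cytokines and chemokines, take up dead fibres, and later turn into macrophages with genes for complement, lipid handling and antigen presentation. Such macrophages release signals that act on muscle stem cells, fibroblasts and newly arriving leukocytes.

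The table lists 34655400 alignments for day 2, 31958500 and 25953400 for the day 4 libraries and 32073800 for day 6. With 1 library on day 2 there is no test: a gene is called higher or lower here where log2(FPKM + 1) in both day 4 libraries lay at least 2-fold above or below day 2. On this scale the change of genes with low values is understated. Sample titles carry a number that differs with the day (200k on day 2, 50k and 60k on day 4, 15k on day 6), so what it stands for and the day cannot be told apart. The second day 4 library showed a gradient with transcript length and the first did not: in the tercile of genes with the shortest transcripts, the median difference from day 2 was 0.18 in replicate 2 and 0.03 in replicate 1 (log2), and in the longest tercile it was -0.29 and 0.02. Lengths were found for 96.2% of the genes compared. The calls differed with length too. Of 3147 genes in the shortest tercile 187 were called higher and 101 lower, and of 3145 in the longest 68 and 71. Transcripts of muscle fibres also differed between days, with a sum over 14 muscle genes of 76.5 and 103 FPKM on day 4, against 13.3 FPKM on day 2. Neutrophil genes, for which the gate selects against LY6G, summed to 82.2 and 30.8 FPKM on day 4 and 44.1 FPKM on day 2, with Camp and Ngp listed at 0 in the second day 4 library. The part of these other cells in the results below was not tested except where values are given.

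On day 4, 383 genes were higher than on day 2 (3.91% of the genes compared) and 274 were lower (2.79%). The 2 day 4 libraries were 2-fold apart for 180 genes (1.84%), and their median absolute difference was 0.26 on the log2 scale. Of the 657 genes higher or lower, 30 were also 2-fold apart between the day 4 libraries, 9 of them among the higher and 21 among the lower genes. At 4-fold in both libraries, 49 genes were higher and 42 lower. A further 842 genes passed 2-fold in replicate 2 and 126 in replicate 1 without being called. Both counts include the 2 genes that passed it in opposite directions in the 2 libraries. Without replicate 1 the counts would be 706 higher and 793 lower. The median difference over all genes compared was -0.03. Members of the gene lists below are counted against the shares of 3.91% and 2.79%, which take no account of transcript length. These counts carry no test. The filter takes a mean in which the day 4 libraries weigh more than day 2, so the number of listed members that reached it is given for each list.

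**Figure D1:**
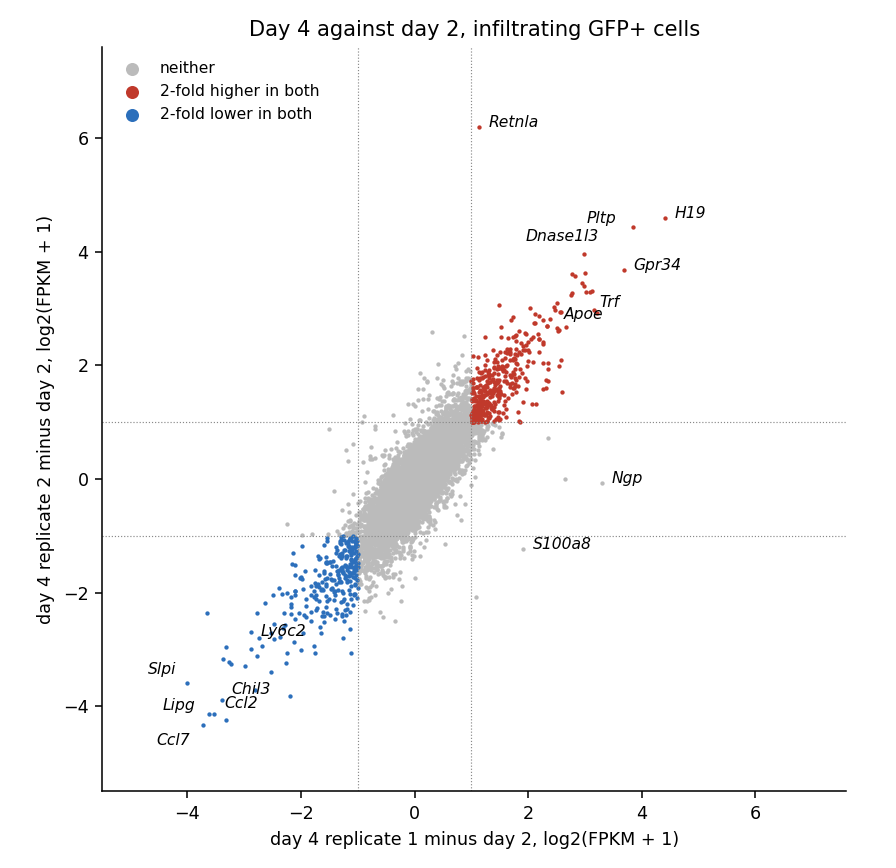
Difference in log2(FPKM + 1) between day 4 and day 2 for the 9805 genes compared, with replicate 1 on the x axis and replicate 2 on the y axis. Red points are 2-fold higher and blue points 2-fold lower in both libraries; Pltp and H19 lie at the upper right, Ccl7 and Slpi at the lower left, and Retnla, Ngp and S100a8 lie away from the diagonal.

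The monocyte genes were the group with the lowest median. Of 16 classical monocyte genes, all 16 above the filter, 13 were lower on day 4, none was higher, and the median difference was -2.29, against -0.03 over all genes. Ly6c2 (chromosome 15, 75108158 to 75111970 in GRCm38), which encodes a LY6C surface antigen, stood at 212 and 242 FPKM on day 4, against 1563 FPKM on day 2. Chil3 (chromosome 3, 106147554 to 106167564), a chitinase-like secreted protein, stood at 32.8 and 22.9 FPKM on day 4, against 353 FPKM on day 2. Both day 4 libraries lay below day 2 for both genes, by a log2 difference of -2.88 and -2.69 for Ly6c2 and of -3.39 and -3.89 for Chil3. The day 6 library was lower again, with 130 FPKM of Ly6c2 and 10.9 FPKM of Chil3. Each has a near-identical neighbour in the genome (Ly6c1 and Chil4), and how reads were shared between such copies is not given in the sources used here. In sorted pools of cells, fewer cells of a type and less RNA per cell cannot be told apart.

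Most other monocyte genes lay in the same direction. Plac8 stood at 141 and 194 FPKM on day 4, against 882 FPKM on day 2. F10, encoding coagulation factor X, had 7.48 and 7.36 FPKM on day 4, against 79.2 FPKM on day 2. The day 4 values of F10 differed little between the libraries and lay far below day 2 in both. Hp (haptoglobin, which binds free haemoglobin) had 5.02 and 6.70 FPKM on day 4, against 59.1 FPKM on day 2, and Vcan (the matrix proteoglycan versican) 0.316 and 0.222 FPKM on day 4, against 8.71 FPKM on day 2. The 3 members short of 2-fold were Ms4a4c, Ly6c1 and Ccr2. Ly6c1 lay on both sides of day 2, with 3.65 and 7.54 FPKM on day 4 and 4.86 FPKM on day 2. Ccr2 is the receptor by which these cells are recruited, and it had 74.4 and 61.3 FPKM on day 4, against 101 FPKM on day 2. Ccr2 was back at 112 FPKM on day 6. Of 8 genes of non-classical monocytes, the patrolling blood subset, 3 were lower (Cd300e, Ceacam1 and Pglyrp1) and none higher, and Spn lay above day 2 in both libraries, with 5.83 and 5.56 FPKM on day 4 and 4.41 FPKM on day 2. Cx3cr1, the fractalkine receptor of the patrolling subset and of many tissue macrophages, was higher on day 4, with 69.8 and 45.0 FPKM, against 12.9 FPKM on day 2.

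**Figure D2:**
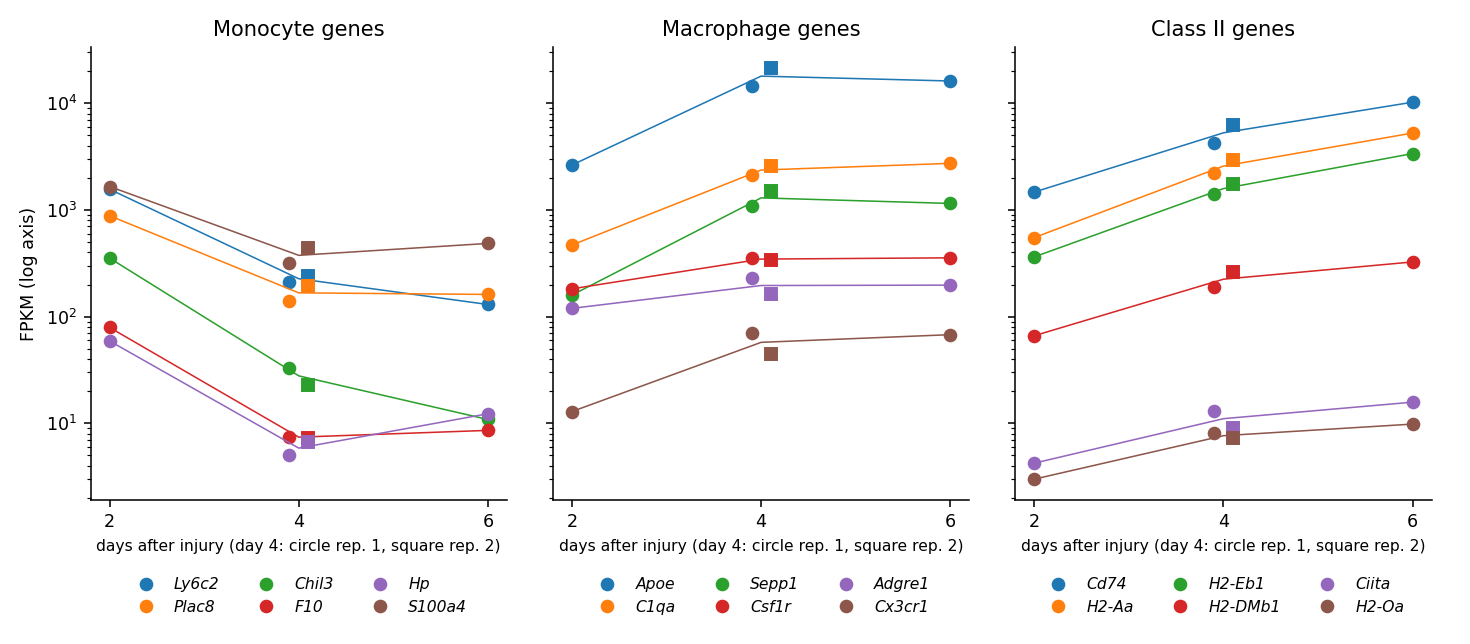
FPKM on a log axis at 2, 4 and 6 days after injury for 6 monocyte, 6 macrophage and 6 class II genes, with both day 4 libraries drawn as points (circle replicate 1, square replicate 2) and lines through the day 4 mean. Monocyte genes stand highest on day 2, while Apoe, C1qa, Sepp1 and the class II genes stand lowest there.

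Chemokine ligands, the secreted proteins that draw leukocytes into tissue, were divided. Of 18 listed, 16 passed the filter, and 6 of these were lower and 3 higher on day 4. The ligands of CCR2, which lie in 1 cluster on chromosome 11, were all lower. Ccl2 (82035571 to 82037453) stood at 109 and 71.0 FPKM on day 4, against 1261 FPKM on day 2. Ccl7 (82045712 to 82047525) stood at 55.1 and 35.8 FPKM on day 4, against 742 FPKM on day 2. Ccl12 (82101845 to 82103400) stood at 46.8 and 44.6 FPKM on day 4, against 319 FPKM on day 2. All 3 were more than 6-fold lower in each day 4 library. Cxcl2 and Cxcl3, which act on neutrophils through CXCR2, and Ccl6 were the other 3 lower ligands. Cxcl3 had 0.609 and 0.520 FPKM on day 4, against 7.93 FPKM on day 2. Cxcl2 had 684 and 552 FPKM on day 4, against 1656 FPKM on day 2. On the other side, Cxcl16, the ligand of CXCR6, stood at 215 and 226 FPKM on day 4, against 52.9 FPKM on day 2. Ccl5 had 76.2 and 130 FPKM on day 4, against 31.7 FPKM on day 2, and Cxcl9, a ligand of CXCR3, 8.19 and 13.2 FPKM on day 4, against 1.40 FPKM on day 2. Ccl3 and Ccl4 did not reach 2-fold, with 462 and 420 FPKM of Ccl3 on day 4, against 691 FPKM on day 2.

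The receptors were divided as well. Of 11 listed chemokine and chemoattractant receptors, 8 passed the filter, 4 were lower and 2 higher. Ccr1, a receptor for CCL3 and CCL5, had 7.92 and 3.88 FPKM on day 4, against 50.7 FPKM on day 2. The formyl peptide receptors Fpr1 and Fpr2, which sense bacterial and mitochondrial peptides, and C5ar1, the receptor for the complement fragment C5a, were the other 3 lower genes. Ccr7, which guides cells to lymph nodes, had 36.2 and 30.2 FPKM on day 4, against 9.82 FPKM on day 2. Cxcr3 had 3.97 and 3.67 FPKM on day 4, against 0.463 FPKM on day 2. T cells also express Ccr7 and Cxcr3, and the T cell genes Cd3e, Cd3d and Cd3g were at 1.21, 1.07 and 0.848 FPKM in day 4 replicate 1 and at 0.527, 0.910 and 0.888 FPKM in replicate 2, against 0.120, 0.172 and 0.280 FPKM on day 2. The gate does not remove dendritic cells, whose genes are given below. The part of T cells or dendritic cells in the Ccr7 and Cxcr3 values was not tested.

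Inflammatory cytokines and their regulators had a median difference of -0.78. Of 26 listed, 24 passed the filter, 6 were lower and 1 was higher. Tnf, a central inflammatory cytokine, had 317 and 212 FPKM on day 4, against 671 FPKM on day 2. Il1b, an inflammasome-processed cytokine, stayed short of 2-fold, with 469 and 485 FPKM on day 4, against 388 FPKM on day 2, so the 2 cytokines lay on opposite sides of day 2. Irg1, the enzyme that makes itaconate, had 5.84 and 2.63 FPKM on day 4, against 46.9 FPKM on day 2. The C-type lectins Clec4e (Mincle) and Clec4d, which sense dead cells and mycobacterial lipids, were lower in both libraries, with Clec4e at 20.4 and 16.04 FPKM on day 4, against 146 FPKM on day 2. Il6 and Trem1, an amplifier of inflammatory signalling on myeloid cells, completed the lower genes. The 1 higher gene was Il12b, a subunit of interleukins 12 and 23, with 3.04 and 2.39 FPKM on day 4, against 0.366 FPKM on day 2. Of 19 immediate early and heat shock genes, which handling of cells can induce, 2 were lower (Egr2 and Ier3), 1 was higher, and the median difference was -0.01 in replicate 1 and -0.22 in replicate 2. The part of handling in the inflammatory genes was not tested. Hspa1b, the higher one, is nearly identical to Hspa1a and the split of reads between them is uncertain.

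Type I interferon genes were also lower on day 4 by their median, -0.87. All 22 listed genes passed the filter, 6 were lower, none was higher, and 19 lay below day 2 in both libraries without regard to size. Isg15, a ubiquitin-like protein, had 274 and 314 FPKM on day 4, against 813 FPKM on day 2. Rsad2 (viperin, an antiviral enzyme) had 54.2 and 38.8 FPKM on day 4, against 177 FPKM on day 2. Ifi205, a nucleic acid sensor of the p200 family, had 26.3 and 25.6 FPKM on day 4, against 122 FPKM on day 2. Mx1, Oasl1 and Usp18 were the other 3 lower genes. Ifi44 stood at 13.3 and 17.1 FPKM on day 4 and 6.49 FPKM on day 2, above day 2 without reaching the 2-fold rule in both libraries. The interferon-stimulated response element is the DNA motif through which such genes answer to interferon, and its core, TTTCNNTTTC on either strand, was looked for between 250 bases before and 50 bases after the start of each RefSeq gene (GRCm38.p6). It was found in 11 of the 17 interferon genes with a promoter in the table (64.7%), against 1079 of all 27025 genes with a promoter (3.99%). Listed genes were scored whether called lower or not, and such genes are known for this motif. The shares are therefore background and no test of the day 4 values. The Isg15 window, chr4:156200769-156201068 on the minus strand, holds 3 overlapping matches and the Rsad2 window, chr12:26456403-26456702 on the minus strand, holds 1. Both are shown 5′ to 3′ because they belong to the lower genes described above, and capitals mark the motif.
Isg15: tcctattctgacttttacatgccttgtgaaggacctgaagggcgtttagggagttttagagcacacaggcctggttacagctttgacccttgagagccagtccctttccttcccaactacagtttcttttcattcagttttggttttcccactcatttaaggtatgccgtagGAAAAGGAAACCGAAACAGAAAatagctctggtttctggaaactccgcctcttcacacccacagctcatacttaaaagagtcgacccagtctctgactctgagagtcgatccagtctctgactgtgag
Rsad2: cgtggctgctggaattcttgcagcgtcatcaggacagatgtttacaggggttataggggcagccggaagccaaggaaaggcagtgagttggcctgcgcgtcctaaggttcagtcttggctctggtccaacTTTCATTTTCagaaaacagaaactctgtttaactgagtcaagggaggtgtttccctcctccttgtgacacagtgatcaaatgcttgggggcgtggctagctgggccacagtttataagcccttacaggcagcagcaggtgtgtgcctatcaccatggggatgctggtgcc
A match in these letters is a description of the promoter and does not show that a factor was bound.

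Several genes of lipid transport and the 3 chains of complement C1q were among the higher genes. Apoe, the lipid carrier apolipoprotein E (chromosome 7, 19696109 to 19699188), stood at 14480 and 21434 FPKM on day 4, against 2637 FPKM on day 2. It made up 3.61% and 4.76% of all FPKM on day 4, against 0.667% on day 2. Pltp, which transfers phospholipids between lipoproteins (chromosome 2, 164839518 to 164857711), stood at 565 and 854 FPKM on day 4, against 38.3 FPKM on day 2, a log2 difference of 3.85 and 4.45. C1qa, C1qb and C1qc, the 3 chains of the complement starter C1q, were all higher, with C1qa at 2142 and 2588 FPKM on day 4, against 469 FPKM on day 2. Sepp1, the selenium carrier selenoprotein P, stood at 1083 and 1512 FPKM on day 4, against 159 FPKM on day 2. Values in the 2 day 4 libraries lay above day 2 for each of these genes, and replicate 2 was higher than replicate 1 for Apoe, Pltp, C1qa and Sepp1.

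Of 16 macrophage identity genes, all above the filter, 5 were higher (Cx3cr1, the 3 C1q genes and Cd81), none was lower, and the median difference was 0.91. Csf1r, the receptor for the macrophage growth factors CSF1 and IL-34, was short of 2-fold, with 352 and 341 FPKM on day 4 and 182 FPKM on day 2. Adgre1, encoding F4/80, had 229 and 162 FPKM on day 4 and 120 FPKM on day 2. Cd68, a lysosomal membrane protein of phagocytes, had 870 and 714 FPKM on day 4 and 1098 FPKM on day 2. Csf1r, Adgre1 and Cd68 were thus present at over 100 FPKM on both days, and they differed much less than the C1q genes. Mertk had less, with 22.8 and 16.4 FPKM on day 4 and 9.80 FPKM on day 2. Fcgr1 had 171 and 159 FPKM on day 4 and 295 FPKM on day 2. Of the 16 genes, 11 lay above day 2 in both libraries and 3 below, without regard to size. None of 18 lineage transcription factors was 2-fold higher or lower in both libraries. Spi1, encoding PU.1, had 205 and 230 FPKM on day 4 and 245 FPKM on day 2, and Cebpb had 339 and 407 FPKM on day 4 and 785 FPKM on day 2.

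Genes of resident tissue macrophages were higher in part. Of 16 listed, 13 passed the filter, and 3 were higher on day 4: Sepp1, Gas6 (a bridge between dying cells and phagocyte receptors) and Fcna (ficolin A, a lectin of the complement system). Folr2 (a folate receptor) stood at 142 and 136 FPKM on day 4 and 79.0 FPKM on day 2, short of 2-fold. Of the 13 genes, 10 lay above day 2 in both libraries and 1 below, without regard to size. The median difference was 1.015 over the 13 and 0.85 over all 16 listed. Timd4 and Vsig4, which fell short of the filter, remained below 0.2 FPKM in all day 2 and day 4 libraries. Lyve1 was at 0.570 and 0.871 FPKM on day 4, against 0.0878 FPKM on day 2, and its day 6 value was 3.22 FPKM.

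**Figure D3:**
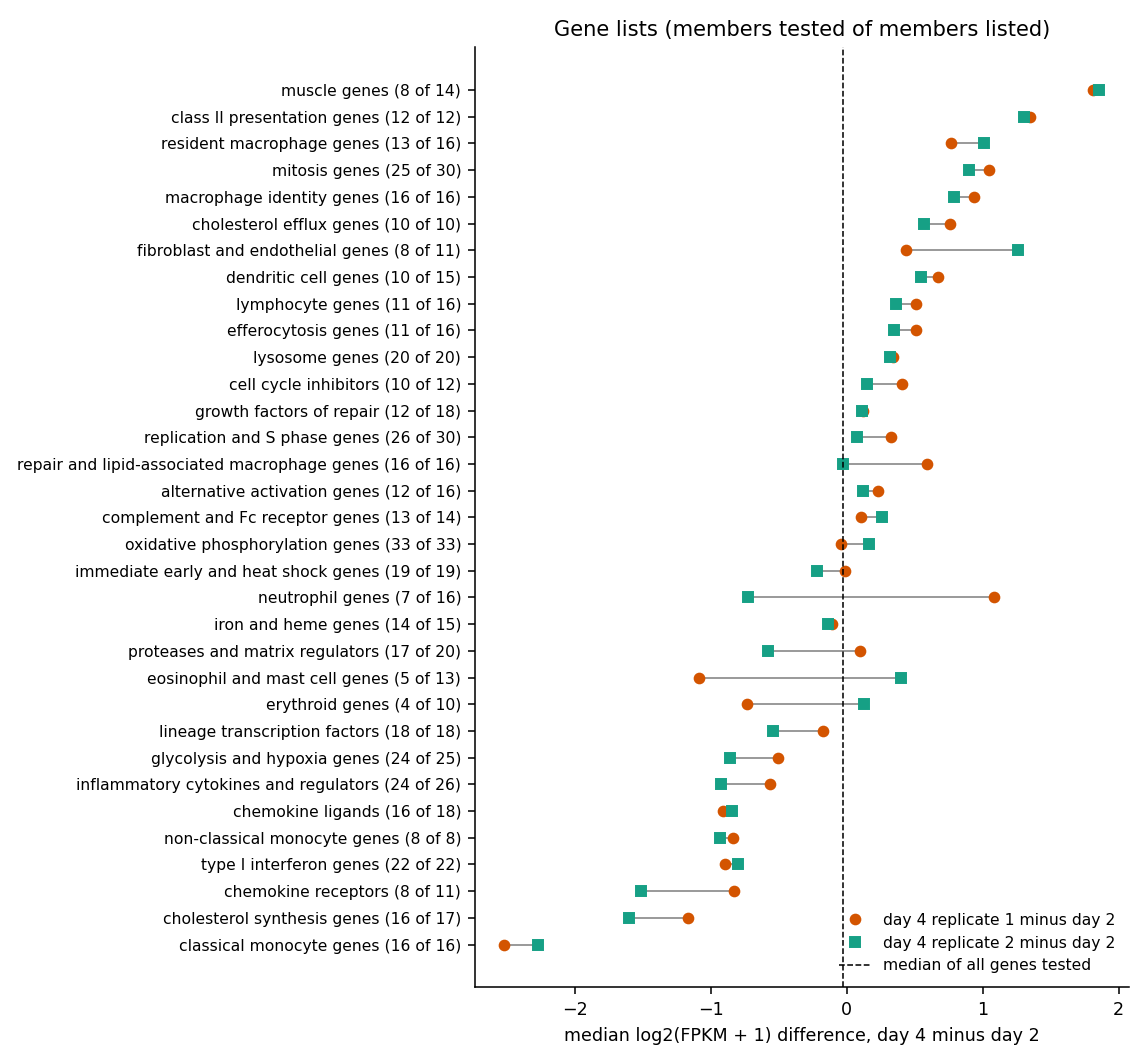
Median difference in log2(FPKM + 1) between day 4 and day 2 over the members of 33 gene lists that passed the filter, for replicate 1 (circle) and replicate 2 (square), with the number tested of the number listed. Muscle and class II genes stand at the top and classical monocyte genes at the bottom. Over all 14 listed muscle genes, filtered or not, the median was 0.86, below the 1.22 of class II genes. The libraries lie on opposite sides of 0 for the neutrophil, eosinophil and mast cell, erythroid, repair macrophage, oxidative phosphorylation and protease lists.

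Class II presentation genes, which display peptides to CD4 T cells, were higher on day 4. Of 12 listed, all above the filter, 6 were higher, none was lower, all 12 lay above day 2 in both libraries without regard to size, and the median difference was 1.22. Cd74, the invariant chain, stood at 4254 and 6316 FPKM on day 4, against 1472 FPKM on day 2. H2-Aa, an alpha chain of I-A, stood at 2198 and 2956 FPKM on day 4, against 551 FPKM on day 2. Ciita, the transcriptional switch of the group, had 13.02 and 9.10 FPKM on day 4 and 4.24 FPKM on day 2, past 2-fold in replicate 1 and short of it in replicate 2. The values were higher still on day 6, with 10231 FPKM of Cd74 and 5261 FPKM of H2-Aa. Dendritic cells carry class II as well, and the gate does not remove them. Of 15 dendritic cell genes, 10 passed the filter, 2 were higher (Cd209a and Siglech), Cd24a was lower, and their sum was 74.0 and 71.4 FPKM on day 4, against 88.2 FPKM on day 2. Cd24a, which many leukocytes express, took up 58.9 FPKM of the day 2 sum, and 8 of the 10 genes lay above day 2 in both libraries. Flt3, the growth factor receptor that defines dendritic cell precursors, had 7.73 and 5.18 FPKM on day 4 and 2.83 FPKM on day 2, and Cd209a had 20.96 and 19.3 FPKM on day 4, against 8.75 FPKM on day 2. The defining genes Xcr1 and Zbtb46 stayed below 1 FPKM on both days. The part of dendritic cells in the class II values was not tested. Itgax, encoding CD11C of dendritic cells and activated macrophages, was higher, with 80.7 and 47.9 FPKM on day 4, against 18.5 FPKM on day 2.

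Cholesterol genes split by direction of transport. Of 17 genes of cholesterol synthesis and uptake, 16 passed the filter, 9 were lower on day 4, none was higher, and all 16 lay below day 2 in both libraries, with a median difference of -1.36. Fdps, which makes farnesyl pyrophosphate, had 10.4 and 8.91 FPKM on day 4, against 50.6 FPKM on day 2. Cyp51, a sterol demethylase, had 4.03 and 3.09 FPKM on day 4, against 14.7 FPKM on day 2. Idi1, which makes dimethylallyl pyrophosphate, had 4.11 and 3.14 FPKM on day 4, against 16.5 FPKM on day 2. Of 10 efflux genes, all above the filter, 2 were higher and none lower, with a median difference of 0.74. Besides Pltp the higher gene was Abca1, the pump that loads cholesterol onto apolipoproteins, with 36.9 and 22.8 FPKM on day 4, against 6.91 FPKM on day 2. Abcg1, a partner pump, had 75.8 and 65.8 FPKM on day 4 and 35.1 FPKM on day 2, past 2-fold only in replicate 1. Nr1h3 (LXR alpha, a sterol-sensing receptor that drives these pumps) differed less, with 33.7 and 30.8 FPKM on day 4 and 27.9 FPKM on day 2.

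Genes of energy metabolism differed less by their medians. Of 25 glycolysis and hypoxia genes, 24 passed the filter, 3 were lower on day 4 and none was higher, and 20 lay below day 2 in both libraries, with a median of -0.63. Slc16a3, the lactate exporter MCT4, had 11.4 and 9.16 FPKM on day 4, against 35.7 FPKM on day 2. Pkm, which makes pyruvate, had 254 and 192 FPKM on day 4, against 582 FPKM on day 2, and Eno1 (enolase) was the other lower gene. Of 33 oxidative phosphorylation genes 1 was lower (Cycs, cytochrome c), none was higher, and the median was 0.10. Of 15 iron and heme genes, 14 passed the filter and 1 was lower: Hmox1, which breaks down heme, with 97.3 and 80.7 FPKM on day 4, against 250 FPKM on day 2. The ferritin chain Ftl1 was among the most abundant transcripts, at 9852 and 10725 FPKM on day 4 and 11472 FPKM on day 2.

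**Figure D4:**
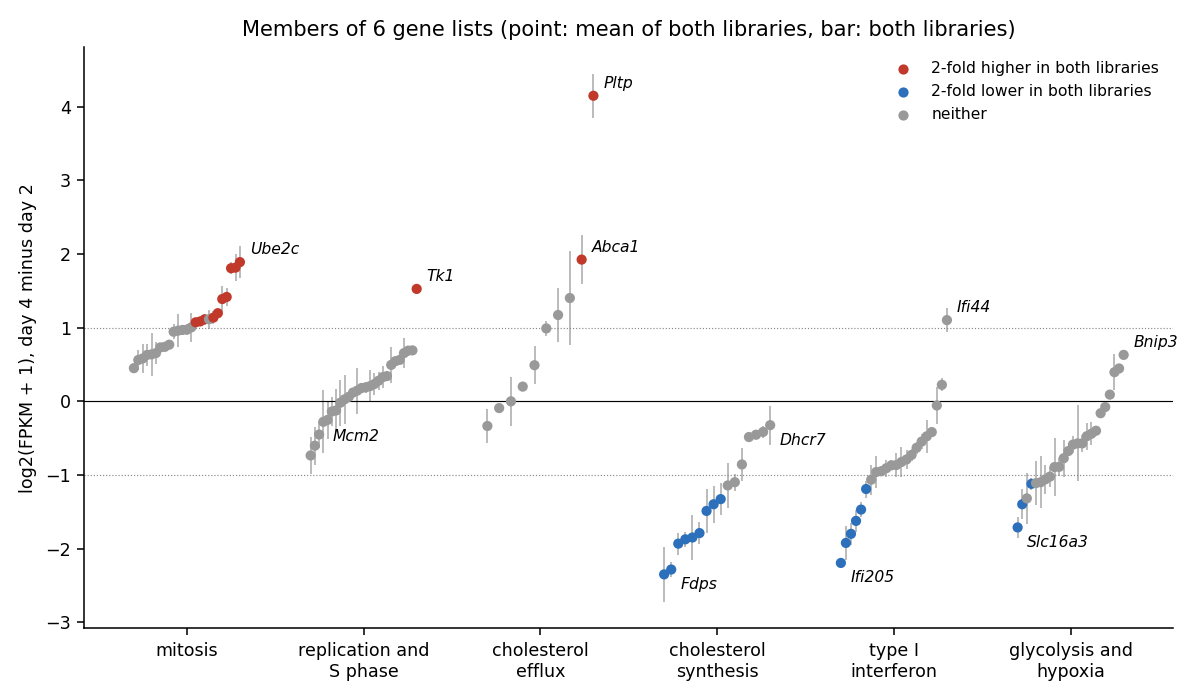
Difference in log2(FPKM + 1) between day 4 and day 2 for every member above the filter of 6 gene lists, each point the mean of both day 4 libraries and each bar joining the 2 libraries, with dotted lines at 2-fold. Every mitosis gene lies above 0 and every cholesterol synthesis gene below 0, while Pltp and Abca1 stand out in cholesterol efflux.

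Mitosis genes were higher on day 4, at low levels. Of 30 listed, 25 passed the filter, 10 were higher, none was lower, and all 25 lay above day 2 in both libraries; over all 30 members, filtered or not, the median difference was 0.95. Ube2c, which marks mitotic proteins for destruction, had 10.4 and 14.4 FPKM on day 4, against 2.58 FPKM on day 2. Ccnb2 (cyclin B2) had 7.72 and 8.74 FPKM on day 4, against 1.63 FPKM on day 2. Cdca3, which triggers entry into mitosis, had 7.45 and 9.92 FPKM on day 4, against 1.73 FPKM on day 2. All 3 had less on day 6 than on day 4, with 4.81, 3.87 and 4.05 FPKM. Genes of DNA replication and S phase differed less. Of 30 listed, 26 passed the filter, 1 was higher (Tk1, thymidine kinase), none was lower, and the median was 0.19. Pcna, the replication clamp, had 129 and 89.7 FPKM on day 4 and 164 FPKM on day 2. Mcm2, a subunit of the replicative helicase, had 5.13 and 2.38 FPKM on day 4 and 4.52 FPKM on day 2, so its day 4 libraries lay on both sides of day 2. Of 12 cell cycle inhibitors, 10 passed the filter and none was higher or lower. Myog, a factor of muscle differentiation, was also higher on day 4, at 4.23 and 5.73 FPKM, against 0.0387 FPKM on day 2. Pax7 of muscle stem cells was below the filter, at 0.0725 and 0.177 FPKM on day 4 and 0.0134 FPKM on day 2. The part of such cells in the mitosis values was not tested.

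Many mitosis promoters carry 2 elements bound by the complexes that time their expression, the cell cycle homology region and the CCAAT box. The letters TTTGAA, on either strand, were found in 20 of the 26 mitosis genes with a RefSeq promoter (76.9%). They were found in 3 of 25 S phase genes (12%) and in 5466 of all 27025 genes with a promoter (20.2%). CCAAT, on either strand, was found in 21 of the 26 mitosis genes (80.8%) and in 15 of 25 S phase genes (60%). It was found in 41.1% of all genes with a promoter. Here too listed genes were scored whether called or not, so these shares are background and no test of the day 4 values. The promoters of Ccnb2 (chr9:70421505-70421804, minus strand) and Cdca3 (chr6:124829926-124830225, plus strand) are shown 5′ to 3′ because they carry both, with the letters of either motif in capitals. Ccnb2 has 2 matches to TTTGAA and Cdca3 has 1, and each has 3 matches to CCAAT.
Ccnb2: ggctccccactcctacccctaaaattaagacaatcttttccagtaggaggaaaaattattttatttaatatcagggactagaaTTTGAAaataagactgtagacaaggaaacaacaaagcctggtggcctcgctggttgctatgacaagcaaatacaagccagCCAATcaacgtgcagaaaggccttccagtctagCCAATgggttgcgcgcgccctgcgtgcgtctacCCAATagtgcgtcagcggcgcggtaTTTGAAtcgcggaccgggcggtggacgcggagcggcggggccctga
Cdca3: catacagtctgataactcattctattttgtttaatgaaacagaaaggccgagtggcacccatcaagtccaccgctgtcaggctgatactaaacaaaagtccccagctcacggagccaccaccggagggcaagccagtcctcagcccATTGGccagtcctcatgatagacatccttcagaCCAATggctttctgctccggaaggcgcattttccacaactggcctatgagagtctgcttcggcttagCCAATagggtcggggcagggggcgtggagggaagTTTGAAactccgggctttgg
The motifs describe the promoters of these genes, and the expression data do not show which factor acted on them.

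Genes of repair macrophages lay on both sides of day 2. Of 16 genes of lipid-associated and repair macrophages, all above the filter, 2 were higher (Apoe and Atp6v0d2, a subunit of the lysosomal proton pump), 1 was lower (Fabp4, a fatty acid carrier), and the median difference was 0.59 in replicate 1 and -0.03 in replicate 2. Trem2, a lipid receptor of such macrophages, had 443 and 408 FPKM on day 4 and 222 FPKM on day 2, and Gpnmb 646 and 480 FPKM on day 4 and 415 FPKM on day 2. Spp1, encoding osteopontin, had 1276 and 564 FPKM on day 4 and 1850 FPKM on day 2. Replicates 1 and 2 disagreed in direction for Lpl, lipoprotein lipase, at 228 and 78.2 FPKM on day 4 and 129 FPKM on day 2. Igf1, a growth factor that macrophages supply to regenerating muscle, had 16.7 and 13.2 FPKM on day 4 and 6.81 FPKM on day 2, past 2-fold in replicate 1 only.

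Of 16 alternative activation genes, which respond to interleukins 4 and 13, 12 passed the filter, 2 were higher and 2 lower. Arg1, which breaks down arginine, had 0.713 and 0.974 FPKM on day 4, against 16.7 FPKM on day 2. Retnla, a secreted protein of this state, had 3.73 and 156 FPKM on day 4, against 1.15 FPKM on day 2. The 2 day 4 libraries of Retnla were thus further apart than replicate 1 and day 2, and day 6 had 46.9 FPKM. Ccl22 was higher and Flt1 lower in both libraries. Of 20 lysosome genes, 3 were higher, among them Ctsh, a cathepsin, and Hexa, an enzyme of ganglioside breakdown, and none was lower. Of 16 efferocytosis genes, 11 passed the filter; Mfge8, a bridge to dying cells, was higher, with 24.8 and 32.7 FPKM on day 4, against 7.48 FPKM on day 2, and Msr1, a scavenger receptor, was lower, with 33.8 and 17.7 FPKM on day 4, against 75.1 FPKM on day 2. Of 14 complement and Fc receptor genes, 13 passed the filter, Itgax was higher and C3 was lower.

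Growth factors and matrix genes included members on both sides. Of 18 growth factors of repair, 12 passed the filter. Pdgfb, which acts on fibroblasts and pericytes, was higher, with 28.7 and 13.2 FPKM on day 4, against 3.89 FPKM on day 2. Areg (amphiregulin, a ligand of the epidermal growth factor receptor) was lower, with 2.53 and 3.35 FPKM on day 4, against 12.4 FPKM on day 2, and so was Metrnl (a secreted meteorin-like factor), with 66.3 and 64.9 FPKM on day 4, against 161 FPKM on day 2. Gdf15 hardly differed, at 514 and 487 FPKM on day 4 and 485 FPKM on day 2. Of 20 proteases and matrix regulators, 17 passed the filter, 2 were higher and 4 lower. Mmp14, a membrane-bound collagenase, had 112 and 91.0 FPKM on day 4, against 39.4 FPKM on day 2, and the inhibitor Timp2 was higher as well. Timp1, another inhibitor, had 3.34 and 5.87 FPKM on day 4, against 18.4 FPKM on day 2, and the proteases Adam8, Mmp8 and Mmp19 were the other lower genes.

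Among the 15 higher genes with the largest smaller difference and a mean of at least 5 FPKM, macrophage and muscle genes stood side by side. The macrophage side held Pltp, Gpr34 (a lysophosphatidylserine receptor), Npl (an enzyme of sialic acid breakdown), Trf (transferrin), Hpgd (which inactivates prostaglandins), Dnase1l3 (which digests extracellular chromatin), Fcrls (a scavenger receptor-like protein of mouse macrophages), Tlr12 and Fcgrt (the recycling receptor for antibodies). Which cells gave these transcripts was not tested, and the gate does not remove dendritic cells. Gpr34 stood at 22.3 and 22.2 FPKM on day 4, against 0.814 FPKM on day 2. Fcrls stood at 108 and 88.2 FPKM on day 4, against 10.8 FPKM on day 2. Fcgrt stood at 69.0 and 124 FPKM on day 4, against 9.29 FPKM on day 2. On day 6 the values were 24.7 FPKM for Gpr34, 97.4 FPKM for Fcrls and 94.0 FPKM for Fcgrt, each near its day 4 values. Npl, in contrast, stood at 2.61 FPKM on day 2, 30.6 and 34.7 FPKM on day 4 and 16.9 FPKM on day 6. Dnase1l3 stood at 0.340 FPKM on day 2, 9.60 and 19.8 FPKM on day 4 and 7.61 FPKM on day 6, and Hpgd at 0.666 FPKM on day 2, 12.3 and 19.5 FPKM on day 4 and 23.1 FPKM on day 6. Lag3, an inhibitory receptor that binds class II, had 23.2 and 20.3 FPKM on day 4, against 1.71 FPKM on day 2, and Pxdc1 10.3 and 14.1 FPKM on day 4, against 0.428 FPKM on day 2. Acta1, Mylpf and Myl4 are contractile genes, and H19 is a long noncoding RNA that is abundant in regenerating muscle. H19 (chromosome 7, 142575529 to 142578143) had 26.8 and 30.7 FPKM on day 4, against 0.306 FPKM on day 2. Mylpf, a fast muscle myosin light chain, had 25.4 and 36.5 FPKM on day 4, against 2.43 FPKM on day 2. Of 14 muscle genes, 8 passed the filter and 5 were higher, none was lower, and the sum over the 14 was 164 FPKM on day 6. The median difference was 1.83 over the 8 and 0.86 over all 14, filtered or not. Among the 15 lower genes, others were Lipg (endothelial lipase), Slpi (an inhibitor of neutrophil elastase), Slfn4 (a Schlafen protein of myeloid cells) and Cd177 (a neutrophil surface protein). Slpi had 2.69 and 3.89 FPKM on day 4, against 58.3 FPKM on day 2, and Cd177 had 2.53 and 1.87 FPKM on day 4, against 27.1 FPKM on day 2.

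Markers of several other cell types differed between the day 4 libraries. Of 16 neutrophil genes, 12 are in the table, 7 passed the filter, and none was higher or lower in both libraries. Cd177, the neutrophil surface protein described above, is outside this list and was lower in both. It had 2.53 and 1.87 FPKM on day 4, against 27.1 FPKM on day 2. The part of neutrophils in the lower genes was not tested. Ngp, a neutrophil granule protein, had 9.34 FPKM in day 4 replicate 1 and was listed at 0 in replicate 2, against 0.0493 FPKM on day 2. S100a8, a calcium-binding protein of neutrophils and monocytes, had 18.2 and 1.16 FPKM on day 4, on both sides of the 4.09 FPKM of day 2. Mast cell proteases showed the reverse: Cma1 had 0.115 FPKM in replicate 1 and 3.45 FPKM in replicate 2 on day 4, against 1.06 FPKM on day 2. Collagen genes were highest in replicate 2 and on day 6, with Col3a1 at 7.90 FPKM on day 2, 16.5 and 29.3 FPKM on day 4 and 31.9 FPKM on day 6. Summed over 11 fibroblast and endothelial genes, the values were 52.4 and 101 FPKM on day 4, against 44.8 FPKM on day 2, and Kdr of endothelial cells was lower on day 4. Of 16 lymphocyte genes, 11 passed the filter, Cd4 and Cd79b were higher, and the sum was 39.0 and 42.6 FPKM on day 4, against 31.8 FPKM on day 2. The B cell genes Ms4a1, Cd79a and Pax5 stayed below 0.2 FPKM on both days. Of 10 erythroid genes, 4 passed the filter and none was higher or lower in both libraries.

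Few genes turned on day 4. By the 2-fold rule against both day 2 and day 6, 3 genes peaked on day 4 (0.0306%) and 4 dipped (0.0408%), with the same day 4 libraries in both comparisons and 1 library on each outer day. Serpine2 (chromosome 1, 79794197 to 79861180), a secreted inhibitor of thrombin and plasminogen activators, stood at 0.752 FPKM on day 2, 10.2 FPKM in each day 4 library and 2.00 FPKM on day 6. Angptl4, an inhibitor of lipoprotein lipase, stood at 3.49 FPKM on day 2, 9.54 and 19.4 FPKM on day 4 and 3.56 FPKM on day 6. Tnnt2, a troponin T of heart and developing skeletal muscle, was listed at 0 on day 2 and stood at 4.65 and 5.32 FPKM on day 4 and 1.59 FPKM on day 6; with a mean under 5 FPKM it lay outside the rule for named genes and was added after its values were seen. The day 4 libraries nearly matched for Serpine2 and were further apart for Angptl4. Of the genes that dipped, F13a1, the transglutaminase subunit of coagulation factor XIII, stood at 51.8 FPKM on day 2, 17.2 and 17.9 FPKM on day 4 and 45.9 FPKM on day 6. Il6 stood at 13.6 FPKM on day 2, 2.39 and 2.72 FPKM on day 4 and 7.44 FPKM on day 6, and Ccl12, described above, was at 109 FPKM on day 6. Pglyrp1, which binds bacterial peptidoglycan, stood at 17.8 FPKM on day 2, 1.91 and 1.44 FPKM on day 4 and 4.84 FPKM on day 6, just past the rule. Without day 4 replicate 1 the counts would be 32 peaking and 79 dipping genes, and without replicate 2 they would be 7 and 18.

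**Figure D5:**
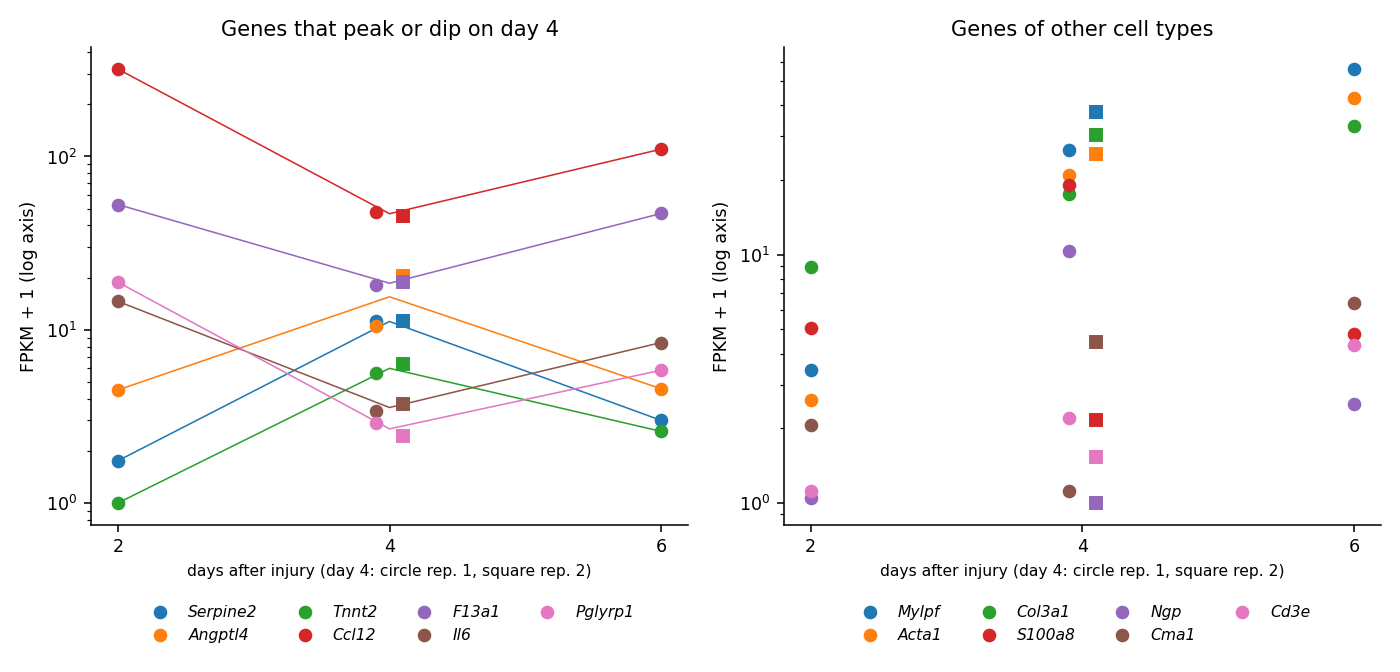
FPKM + 1 on a log axis at 2, 4 and 6 days after injury, with circles for day 4 replicate 1 and squares for replicate 2. The left panel shows the genes that peak or dip on day 4, with lines through the day 4 mean; the right panel shows genes of muscle, fibroblasts, neutrophils, mast cells and T cells, where the day 4 points of Ngp, S100a8 and Cma1 are far apart.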

How the data were processed

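Values are FPKM deposited by the authors for 4 libraries of sorted cells, in 1 table with no pooled columns. Per the labels' protocols, stranded mRNA libraries were sequenced as paired 43-base reads, and the submitters' processing notes name Cufflinks, STAR, Bowtie, bcl2fastq and mm10, without versions or roles. An alignment total and 23 entries whose names had become dates were removed. Values were taken as log2(FPKM + 1) where a gene averaged 1 FPKM or more over the 4 libraries. The members and the 33 gene lists were chosen with earlier results of these data known, so no list carries a test.

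Named genes were the 15 each way with the largest smaller difference and the genes that peak or dip, with a mean of at least 5 FPKM, and predicted genes and small RNA hosts were skipped; list members served as examples, and some items are not reported here. Gene positions came from GENCODE vM21 and promoters from RefSeq (GRCm38.p6). With 1 library on day 2, limma-trend (limma 3.58.1 in R 4.3.3) was used only as an alternative for counts. Python 3.11.15 with numpy 2.4.6, pandas 2.3.3 and matplotlib 3.10.9 was used. Alternatives changed the pseudocount, filter and scaling, or left out a library.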

Additional observations from a re-analysis of the deposited data

How the results depend on the processing

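The main counts were 383 higher, 274 lower, 3 peaking and 4 dipping genes. With a pseudocount of 0.1 there were 696 higher, 12 peaking and 15 dipping genes, and with a pseudocount of 5 there were 137 higher, 151 lower, 1 peaking and 2 dipping. Rescaling all libraries to the same, larger FPKM sum gave 11 peaking and 9 dipping genes. The libraries' own sums were 395603 to 450573 FPKM, so this step also raised every value before the pseudocount was added. The filter then kept 11122 genes instead of 9805. These counts therefore do not show the effect of library totals alone. Scaling by the median ratio between libraries gave 3 peaking and 5 dipping genes. Leaving out a day 4 library gave 465 to 706 higher, 318 to 793 lower, 7 to 32 peaking and 18 to 79 dipping genes. Limma-trend, whose single residual degree of freedom comes from the day 4 pair, called 697 higher and 629 lower at an adjusted p of 0.05, of which 383 and 273 were also called by the size rule. With a day 4 library left out, only the other has to pass the rule, so those counts can only rise. A smaller pseudocount enlarges every log2 difference, and a larger one shrinks it. The cause of the other shifts was not tested. Higher genes made up 58.3% of all called, 65.7% with the pseudocount of 0.1, 47.6% with that of 5 and 47.1% without day 4 replicate 1. Angptl4, Il6 and Pglyrp1 lost the 2-fold rule with a pseudocount of 5 (0.76, 0.69 and 0.51 on the log2 scale), as did Tnnt2. No named gene reversed under any alternative run. The named genes were chosen for large differences in both day 4 libraries. A change of pseudocount or a left-out library therefore could not reverse them. The other filters and scalings kept the counts of higher and lower genes within 1.5 times. No paired analysis was possible because day 2 and day 6 have 1 library each and the days share no replicate pairs. Single libraries on day 2 and day 6 limit every value, since their spread is unknown.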
